A study of Homo sapiens with 6 samples.

Results

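The long intergenic non-coding RNAs that carry a LINC number in place of a descriptive name were examined in H460 cells treated with fluoxetine. Members were the rows of the deposited count table whose gene name was LINC followed by digits, without the suffix for antisense RNAs, and they were selected on a summed count of at least 100 over the 6 libraries. Of 755 LINC rows among 31762 rows in all, 127 met this minimum. The remaining 628 rows lay below it, and 22 of those passed the filter for testing, with 1 called, in the higher direction. H460 is an established line from a human large cell lung carcinoma, and its genotype is given as WT. The 3 control libraries came from cells labelled control, for which no vehicle is named, and the 3 fluoxetine libraries came from cells that were left for 24 h after seeding and then exposed to 20 µM fluoxetine for 24 h. Fluoxetine is an antidepressant that inhibits serotonin reuptake. RNA was total RNA of the whole culture, so that fewer cells of one kind and less RNA per cell cannot be told apart. The labels do not say whether the libraries of a group came from separate cultures, and p-values then measure only the spread between these libraries.

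A LINC number is given to a transcribed locus between coding genes whose RNA has no accepted protein product and no better description. Most such RNAs are spliced and polyadenylated like messenger RNA, but they are less abundant and more restricted to particular tissues, and many stay in the nucleus. A few act on a neighbouring gene, a few bind proteins or microRNAs, and a few loci were later found to encode small proteins and received new names. For the majority no function is established.

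Libraries held from 16157507 to 27823667 counts, and each fluoxetine library was shallower than each control library. At these depths 3 counts were worth 0.108 to 0.182 CPM, the unit of level used here, which is the count scaled to a common library size by the trimmed mean of M-values (TMM). Keratins KRT8, KRT18 and KRT19 were abundant, with the summed epithelial markers at 3057 to 4027 CPM in control and 2689 to 3264 CPM in fluoxetine libraries, whereas EPCAM had 46 counts and CDH1 had 2 counts in all libraries together. The immune markers summed to 1.69 to 2.39 CPM, most of it CD14, and the endothelial markers to 0.182 CPM or less. The fibroblast markers, mainly the collagen gene COL3A1, summed to 22.3 to 24.1 CPM in control and 16.5 to 17.5 CPM in fluoxetine libraries. KRT18 was called lower after treatment (log2 fold change -0.72, edgeR adjusted p = 0.00162), and so was COL3A1 (-0.53, edgeR adjusted p = 0.0145). The other tested markers, KRT8, KRT19, CD14 and COL1A1, were not called. The part of these markers in the results was not tested. Of the rows in the table, 1643 share their name with another row, and rows that share a name hold identical counts in every library. The small RNA name Y_RNA alone fills 758 rows. No LINC member shares its name, but 972 of the 15646 tested rows are such repeats, so that values over all genes are also given with each name counted once.

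All 127 members passed the filter on low counts. Their summed counts ran from 101 to 87173, with a median of 305, against a median of 3414.5 for coding genes with at least 100 counts. In 33 members the sum was under 100 in each group taken alone, and the lowest count in a single library was 4. Directly inside the minimum lay LINC01465 with 101 counts, LINC01269 with 103 and LINC00685 with 104. Directly outside lay LINC01094 with 99 counts, and LINC00674 and LINC01311 with 97 each.

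The members were spread over 22 chromosomes, with the most, 14, on chromosome 1. GENCODE release 29 lists 93 of them as lincRNA, 13 as processed transcript, 8 as antisense, 5 as transcribed pseudogenes, 3 as bidirectional promoter RNA and 1 as sense overlapping. It lists 3 more as coding, namely LINC00116, LINC00854 and LINC02581, and does not hold the identifier given for LINC00473. For the 126 others the union of exons had a median length of 3040.5 bases, against 5305.5 for the coding genes. Per kilobase of exon the median member reached 1.03 CPM and the median coding gene 5.28 CPM. Since the numbers were assigned, 18 members have been renamed. LINC00116 is now MTLN, LINC01578 is CHASERR, LINC01146 is HISLA, LINC00346 is PRECSIT, and LINC00854 and LINC02581 carry the coding names CCDC200 and RNF227.

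After fluoxetine treatment 7 members were higher and 0 lower than in control cells, with p-values from edgeR's quasi-likelihood test, adjusted by Benjamini-Hochberg over all 15646 rows tested. These were LINC01168, LINC02328, LINC01035, LINC00346, LINC01278, LINC00997 and LINC00473. Over all tested rows, 7.76% were called higher and 5.32% lower, or 8.32% and 6.52% with each name counted once in a fit of its own. The 7 members made up 5.51% of the 127, which was below the share of all genes called higher. A fold change of at least 2 was reached by 2 of them, where 1.25% of all rows were called higher and 0.147% lower at that size. At an unadjusted p under 0.05, 22 members lay higher and 3 lower, against 15.8% and 12.9% of all rows. DESeq2 called 5 of the 7 and limma-voom all 7, and both called 0 members lower. In the fit with each name counted once, LINC01234 and LINC02035 were called as well, which made 9. The calls depended on single libraries. Without control replicate 1 or fluoxetine replicate 2 there were 3 calls, without control replicate 2 or fluoxetine replicate 1 there were 2, without fluoxetine replicate 3 there were 4, and without control replicate 3 there were 7, of which 5 were among those named above, with LINC00116 called lower besides. Calls over all tested rows moved as well. In either direction they numbered 1191, 919 and 3633 without control replicates 1, 2 and 3, and 572, 2212 and 935 without fluoxetine replicates 1, 2 and 3. With all 6 libraries, 1214 rows were called higher and 833 lower.

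For 4 of the 7, RefSeq's window from 250 bases before to 50 bases after the start (build GRCh38.p14) is shown here, since these RNAs carry the calls and their windows held a searched motif or a repeat. The window of LINC00997 starts from a RefSeq start 1993 bases from the deposited one and is left out, and LINC02328 and LINC01035 had no entry. RefSeq's start lies 9 bases from the deposited one in LINC00473, 24 in LINC01278, 57 in LINC00346 and 0 in LINC01168. Each is printed 5′ to 3′ on the strand of the gene. Capitals mark TGACGT or its reverse complement, the cAMP response element without its last 2 bases, in LINC00473 and LINC00346, TGANTCA, the AP-1 site, in LINC00346, and CACGTG, the E-box, in LINC01278.
LINC00473 (chr6:165987990-165988289, minus strand): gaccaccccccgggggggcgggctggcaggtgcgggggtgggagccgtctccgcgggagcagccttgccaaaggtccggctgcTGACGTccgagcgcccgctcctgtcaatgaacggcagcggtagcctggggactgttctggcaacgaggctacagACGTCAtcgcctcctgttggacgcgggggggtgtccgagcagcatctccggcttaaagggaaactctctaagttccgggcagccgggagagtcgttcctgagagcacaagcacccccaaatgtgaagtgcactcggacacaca
LINC01278 (chrX:63561046-63561345, minus strand): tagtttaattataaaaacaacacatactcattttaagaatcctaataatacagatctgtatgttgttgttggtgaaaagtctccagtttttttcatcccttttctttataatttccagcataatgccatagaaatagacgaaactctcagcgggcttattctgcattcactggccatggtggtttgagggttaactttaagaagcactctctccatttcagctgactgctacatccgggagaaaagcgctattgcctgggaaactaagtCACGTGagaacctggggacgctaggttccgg
LINC00346 (chr13:110870259-110870558, minus strand): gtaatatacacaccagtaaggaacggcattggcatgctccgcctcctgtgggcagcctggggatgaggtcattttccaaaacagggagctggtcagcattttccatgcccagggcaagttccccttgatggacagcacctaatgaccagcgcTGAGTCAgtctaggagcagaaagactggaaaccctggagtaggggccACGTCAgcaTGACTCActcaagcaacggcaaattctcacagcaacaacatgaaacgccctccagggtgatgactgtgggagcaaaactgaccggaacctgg
LINC01168 (chr10:132965284-132965583, plus strand): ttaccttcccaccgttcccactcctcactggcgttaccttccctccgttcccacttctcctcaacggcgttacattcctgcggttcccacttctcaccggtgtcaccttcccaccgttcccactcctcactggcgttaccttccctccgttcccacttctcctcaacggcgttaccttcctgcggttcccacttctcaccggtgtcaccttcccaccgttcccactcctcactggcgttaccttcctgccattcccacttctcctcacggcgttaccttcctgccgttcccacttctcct

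Motifs were searched by their letters on both strands in 35116 promoter windows, of which 95 matched a member. TGACGT stood in 7.98% of all windows and in 11 of the 95. In LINC00473 it occurred at positions -167 and -93, counted from the start at 0, and the GC box GGGCGG at position -235. In LINC00346 the AP-1 letters occurred at positions -98 and -42 and TGACGT at -51. The full response element TGACGTCA stood in 1.85% of all windows, the amino acid response core TGATGNAA in 3.62%, the GC box in 45.0%, the CCAAT box CCAAT in 34.6% and the TATA box TATAAA in 11.5%. CCAAT occurred at -223 in LINC00346 and TATAAA at -241 and -146 in LINC01278. The GC, CCAAT and TATA boxes are not marked by capitals above. AP-1 letters stood in 7.71% of all windows and in 7 of the 95. The E-box stood in 7.26% of all windows and in 9 of the 95. In LINC01278 it lay 19 bases after the start inside the longer palindrome TCACGTGA, which 0.980% of all windows held. The window of LINC01168 held none of the 9 searched motifs. It is a tandem repeat, with 86.9% of its bases identical to the base 102 positions on, and 0.122% of all windows reached as high an identity at any spacing from 10 to 150 bases. These are matches of letters, and binding was not measured.

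LINC01168 (ENSG00000240707, chr10:132965534-132976354, plus strand) had the largest estimate of all members. Control replicates 1, 2 and 3 gave 15, 12 and 16 reads, and the shallower fluoxetine replicates gave 32, 32 and 17. Its level was 0.627 ± 0.0520 CPM in control cells and 1.61 ± 0.539 CPM after fluoxetine treatment (SD, n = 3 each). The fluoxetine libraries all lay above the control libraries, but fluoxetine replicate 3, at 0.990 CPM, was far closer to the controls than replicates 1 and 2, at 1.94 and 1.90 CPM. The log2 fold change was 1.36 ± 0.34 SE (edgeR adjusted p = 0.0255). It was not called without control replicate 1 or 2 or without fluoxetine replicate 1 or 2, where the adjusted p from edgeR was 0.0668, 0.0959, 0.138 and 0.0748.

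LINC02328 (ENSG00000258733, chr14:85934710-86129778, plus strand) was counted 20, 17 and 27 times in control cells and 45, 31 and 27 times after treatment, in the order of the replicates. This came to 0.922 ± 0.0453 CPM and 2.05 ± 0.607 CPM (SD, n = 3 each). The groups did not overlap, and fluoxetine replicate 1 stood highest at 2.73 CPM. The log2 fold change was 1.14 ± 0.29 SE (edgeR adjusted p = 0.0268). Without fluoxetine replicate 1 it was 0.86, under the fold of 2, and the adjusted p was 0.157. The call was also lost without control replicate 1 or 2, at adjusted p = 0.0855 and 0.104 from edgeR. Both RNAs with a fold of at least 2 were thus among the least abundant members, with 124 and 167 counts in all. Neither reached 100 counts in the control libraries alone, where LINC01168 had 43 and LINC02328 had 64, so that both passed the minimum with the counts of the fluoxetine libraries added, 81 and 103.

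LINC01035 (ENSG00000226486, chr1:188905688-189037262, plus strand) and LINC01278 were the members with the firmest rise. LINC01035 was counted 254, 253 and 431 times in control cells and 352, 388 and 377 times after treatment. After scaling for depth its level was 13.4 ± 2.01 CPM in control and 22.1 ± 0.867 CPM in fluoxetine libraries (SD, n = 3 each), with no overlap between the groups. The log2 fold change was 0.72 ± 0.12 SE (edgeR adjusted p = 0.00504). Per kilobase of its short exons, 784 bases in 2 blocks, it was the third most abundant of the 126 members with a known exon length, at 22.7 CPM per kilobase.

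LINC01278 (ENSG00000235437, chrX:63343227-63561071, minus strand) was counted 630, 561 and 906 times in control cells and 712, 758 and 759 times after treatment. Its level was 30.1 ± 2.18 CPM in control and 44.2 ± 0.928 CPM in fluoxetine libraries (SD, n = 3 each). No control library exceeded 32.6 CPM and no fluoxetine library was under 43.2 CPM. The log2 fold change was 0.55 ± 0.09 SE (edgeR adjusted p = 0.00377). Both LINC01035 and LINC01278 were called under each of the 15 alternatives run, with log2 fold changes of 0.59 to 0.81 and of 0.48 to 0.58.

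LINC00473 (ENSG00000223414, chr6:165908802-165988048, minus strand), known as a target of the cAMP-responsive factor CREB and studied in lung adenocarcinoma, was the most abundant of the called members. It was counted 1411, 1302 and 1765 times in control cells and 1338, 1443 and 1339 times after treatment. Its level was 65.1 ± 2.34 CPM in control and 81.7 ± 3.95 CPM in fluoxetine libraries (SD, n = 3 each), again without overlap. The log2 fold change was 0.33 ± 0.08 SE (edgeR adjusted p = 0.0201), the smallest among the 7. Leaving out a library ended the call in 5 of 6 cases, all but control replicate 3, with adjusted p-values from edgeR of 0.0736 to 0.144 and log2 fold changes of 0.26 to 0.34.

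LINC00346 (ENSG00000255874, chr13:110863987-110870251, minus strand) was counted 80, 61 and 74 times in control cells and 80, 83 and 81 times after treatment. That is 3.16 ± 0.482 CPM against 4.84 ± 0.112 CPM (SD, n = 3 each), a log2 fold change of 0.62 ± 0.17 SE (edgeR adjusted p = 0.0395). LINC00997 (ENSG00000281332, chr7:32760279-32762924, plus strand) was counted 175, 144 and 209 times in control cells and 153, 186 and 198 times after treatment. Its level was 7.66 ± 0.244 CPM against 10.6 ± 1.2 CPM (SD, n = 3 each), a log2 fold change of 0.47 ± 0.13 SE (edgeR adjusted p = 0.0388). The groups overlapped in neither RNA. Both lay just inside the threshold, and leaving out any of the 6 libraries in turn ended both calls, with adjusted p-values from edgeR of 0.0559 to 0.154 for LINC00346 and of 0.0711 to 0.166 for LINC00997. Both calls were also lost with DESeq2, at adjusted p = 0.0728 and 0.0577, and in edgeR with all libraries thinned to the smallest total, at adjusted p = 0.0526 and 0.114. Without a filter on low counts that of LINC00997 was lost as well (edgeR adjusted p = 0.0549). LINC00997 shares 290 of its 2646 exon bases with the pseudogene DPY19L1P1 on the opposite strand, whose log2 fold change was 0.30 (edgeR adjusted p = 0.214). It is not stated whether the counting used the strand.

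**Figure D1:**
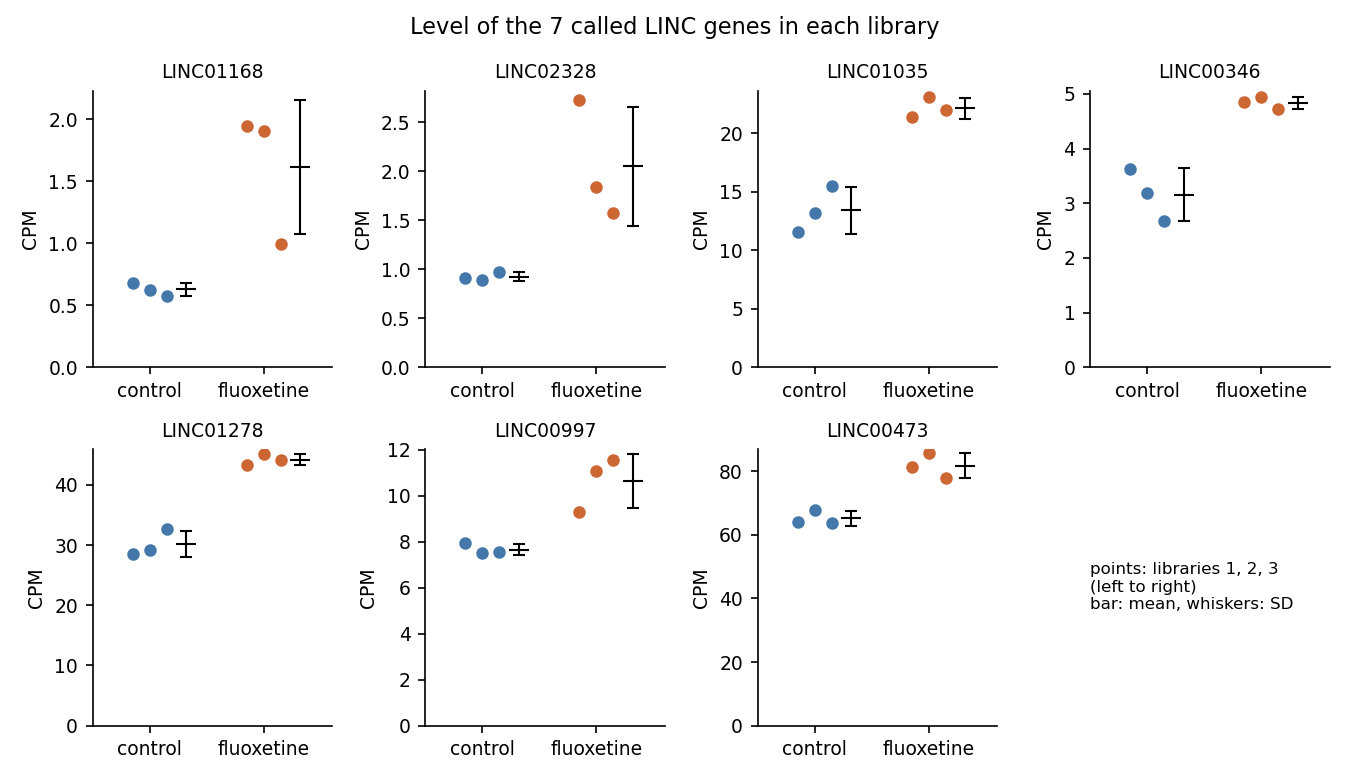
Level in CPM (linear axis from 0) of the 7 called members in each control and fluoxetine library, with the mean and SD (n = 3) beside the points. In every panel the fluoxetine points lie above the control points, and for LINC01168 the third fluoxetine library, at 0.990 CPM, lies closest to the controls.

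Over all 127 members, called or not, more estimates lay above 0 than below. An estimate above 0 was found for 92 members and one below 0 for 35, which is 72.4% higher, against 54.2% of all tested rows and 52.5% with each name counted once. Under 1000 summed counts it was found for 74 of 102 members, and at 1000 or more for 18 of 25. Of all genes with each name counted once, 58.1% lay above 0 at 100 or more and under 1000 counts. At 1000 or more 49.4% did. The median log2 fold change of the members was 0.12, that of all tested rows 0.03 and that of the 12409 tested coding genes 0.01. Members ran from -0.67 to 1.36, with the middle part between -0.03 and 0.39 (first and last quartile). All fluoxetine libraries lay above all control libraries in 29 members, where 17.5% of all rows did so, and below in 5 members, where 14.4% of all rows did. Antisense RNAs named after their sense gene, with a like median summed count of 294.5, had a median log2 fold change of 0.09. Of 238, 17 were called higher and 0 lower, beside 7.76% and 5.32% of all tested rows. The lean of the LINC members was not tested.

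**Figure D2:**
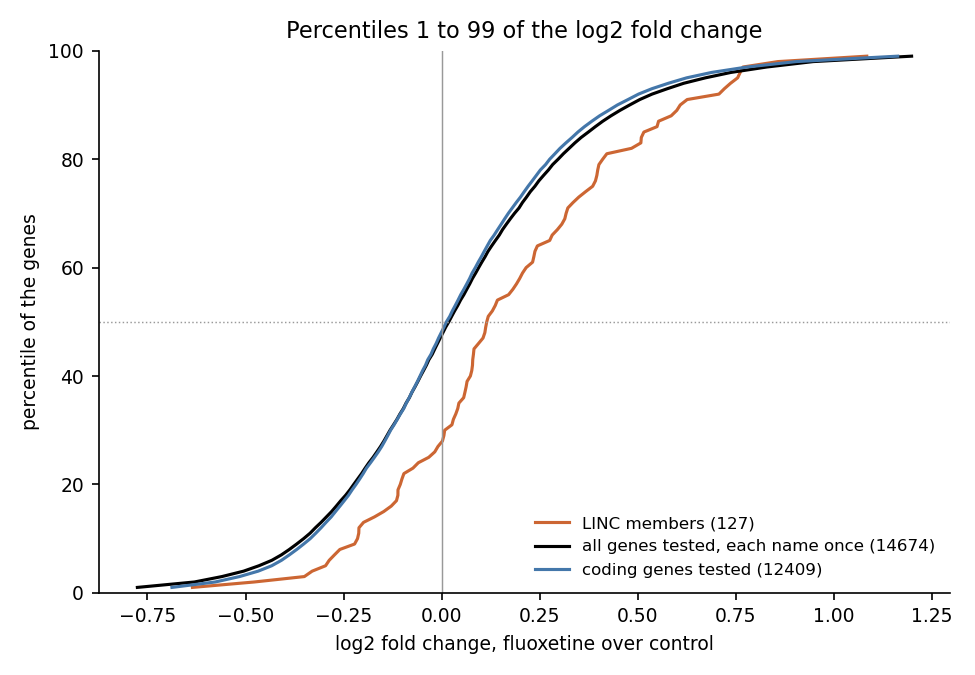
Percentile (1 to 99) against log2 fold change for the LINC members, for all tested genes with each name counted once, and for the tested coding genes. The curve of the members lies to the right of the others over most of its length, with medians of 0.12, 0.02 and 0.01.

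Abundant members were measured more precisely. Among the 102 members with a summed count under 1000, the median standard error was 0.25 and 3 were called, where 6.25% of all rows in that range were called in either direction. Among the 25 members with 1000 counts or more, the median standard error was 0.12 and 4 were called, where 17% of all rows in that range were. With each name counted once these shares of all genes were 6.52% and 18.4%. The median log2 fold change was 0.11 in the lower and 0.12 in the upper range, against 0.05 and 0.02 over all rows, or 0.07 and -0.00434 with each name counted once. The coefficient of variation between libraries of a group had a median over the members of 13.1% in control and 13.2% in fluoxetine cells. It was highest in control cells for LINC01771, at 59.6%, whose fluoxetine libraries varied by 9.63%.

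**Figure D3:**
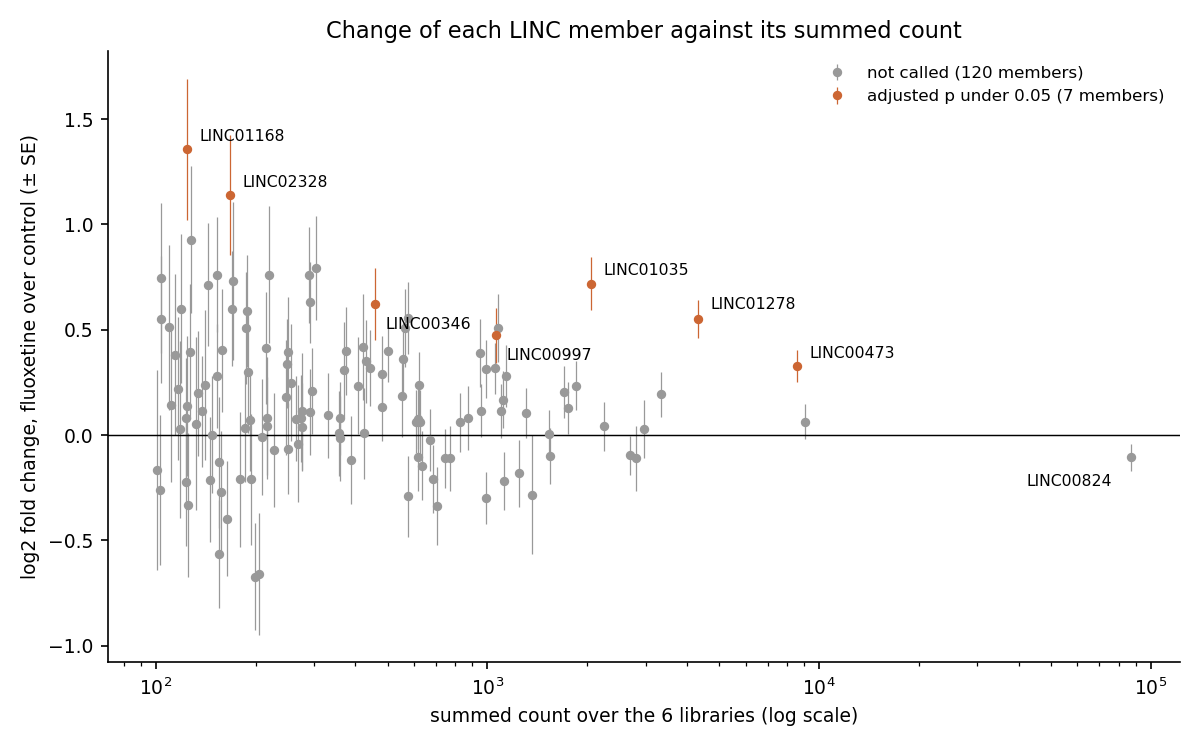
Log2 fold change of each of the 127 members with its standard error against the summed count on a log axis, with the 7 called members in orange. The error bars narrow from left to right, and LINC00824 stands alone at 87173 counts with a value of -0.11.

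Features that the choice of members did not use were set beside the changes, with no test. Of all tested rows, whatever their features, 7.76% were called higher and 5.32% lower. The 21 members that overlap a coding gene had a median log2 fold change of 0.17 and included 2 of the calls, and the 106 others had one of 0.11. The 12 members of a single exon block had a median of 0.29 and included 2 calls, and the 114 with several had a median of 0.11. Those 2 calls, LINC00346 and LINC00997, were each lost when any library was left out. Among the 8 members on chromosome X, 7 had an estimate above 0, with a median log2 fold change of 0.41. Among the 8 members that lie head to head with a coding gene, on opposite strands and without overlapping it, 3 had an estimate above 0, with a median of -0.07. The 126 members held by GENCODE release 29 were searched for copies and shared exons, which leaves out the called LINC00473. Stretches of at least 300 bases at 97% identity or more with another gene's exons occurred in 20 of them, none called. Exon bases were shared with another gene in 60. Reads from such stretches could have been lost or assigned to either gene.

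A single RNA, LINC00824, made up 48.6% of all counts on the members. It occupies chr8:128405269-128564679 (minus strand), and its nearest coding gene, the growth regulator MYC, lies 663834 bases away. Its counts were 17147, 14139 and 20617 in control cells and 11561, 11997 and 11712 after treatment, or 752.3 ± 22.2 CPM and 699.2 ± 16.0 CPM (SD, n = 3 each). Each fluoxetine library lay below each control library, and the log2 fold change was -0.11 ± 0.06 SE (edgeR adjusted p = 0.318), which did not pass the threshold. MYC had a log2 fold change of 0.08 (edgeR adjusted p = 0.708). The exons of LINC00824 hold stretches of up to 302 bases that recur in 8 other genes.

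The share of all counts on the members was therefore taken with and without LINC00824. In the order of the replicates, the share was 0.150, 0.145 and 0.146% for control and 0.154, 0.155 and 0.149% for fluoxetine. The means were 0.147 ± 0.00267% and 0.153 ± 0.00336% (SD, n = 3 each), with p = 0.2 in a two-sided exact permutation test, whose smallest possible p with 3 against 3 is 0.1. Without LINC00824 the share was 0.0727 ± 0.000942% in control and 0.0825 ± 0.00189% in fluoxetine cells (SD, n = 3 each), and all fluoxetine libraries lay above all control libraries (exact permutation p = 0.1). LINC00824 itself took 0.0746 ± 0.00173% of all counts in control and 0.0703 ± 0.00166% in fluoxetine cells (SD, n = 3 each).

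**Figure D4:**
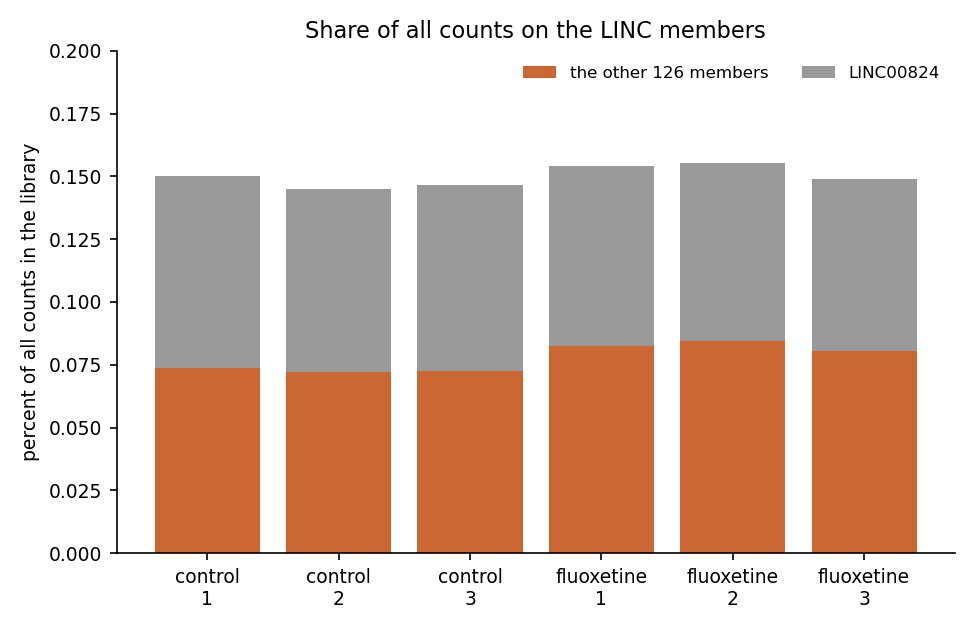
Percent of all counts in each library that fell on the members, as bars from 0 split into LINC00824 and the other 126 members. The total stands between 0.145 and 0.155% in every library, and the lower part at 0.0720 to 0.0738% in control and 0.0806 to 0.0844% in fluoxetine libraries.

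The 8 members with the highest summed count held 67.5% of the counts. Besides LINC00824, LINC00473 and LINC01278 these were LINC00942, LINC01184, LINC00963, LINC00641 and LINC01508, none of which was called. LINC00942 was at 74.7 ± 4.46 CPM in control and 78.0 ± 5.15 CPM in fluoxetine cells (SD, n = 3 each), a log2 fold change of 0.06. For LINC01184, whose start lies 594 bases from that of the ion transporter gene SLC12A2, the log2 fold change was 0.19 (edgeR adjusted p = 0.272). LINC00963 had one of 0.03, LINC00641 of -0.11 and LINC01508 of -0.10. Per kilobase of exon, LINC00824 led at 159.3 CPM per kilobase, followed by LINC00942 at 34.5, LINC01035 at 22.7 and LINC01508 at 14.1.

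Of 18 LINC genes studied in lung cancer, 12 were members, 4 lay below 100 counts and 2 had no row under that name. In that list 1 was called, LINC00473, beside 7.76% of all rows called higher. Of its 12 members 9 had an estimate above 0 and 3 below, and their median log2 fold change was 0.06. Among all 127 members 72.4% lay above 0, and among all tested rows 54.2%. LINC01234 came closest besides. It was counted 39, 28 and 63 times in control cells and 46, 50 and 63 times after treatment, or 1.83 ± 0.409 CPM and 3.15 ± 0.462 CPM (SD, n = 3 each), with no overlap. Its log2 fold change was 0.76 ± 0.23 SE (edgeR adjusted p = 0.0530). It was called in 4 of 15 alternatives, among them at edgeR adjusted p = 0.0499 with each name counted once and at 0.0216 without control replicate 3. In the other 11 it stayed uncalled, among them 5 of the 6 with a library left out. Its log2 fold change ran from 0.59 to 0.92 over the alternatives. LINC00941 was the lowest of these 12 members. It stood at 9.05 ± 0.489 CPM in control and 7.35 ± 0.140 CPM in fluoxetine cells (SD, n = 3 each), with all fluoxetine libraries below all control libraries, a log2 fold change of -0.30 and an adjusted p of 0.142 from edgeR. The log2 fold changes of the others were 0.60 for LINC00472, 0.21 for LINC00662, 0.18 for LINC00461, 0.06 for LINC00665, 0.00 for LINC00707, -0.13 for LINC00511 and -0.22 for LINC00857, beside LINC00942 and LINC00963 above.

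Transcripts later shown to encode small proteins made up a list of 6, of which 2 were members and 4 had no row under the LINC name. LINC00116 encodes mitoregulin, a protein of the inner mitochondrial membrane. In the order of the replicates, its level was 17.5, 13.2 and 7.35 CPM for control and 9.90, 13.1 and 8.04 CPM for fluoxetine. The groups overlapped, and the spread between control libraries was wider than the difference, with a log2 fold change of -0.28 ± 0.28 SE (edgeR adjusted p = 0.575). Without control replicate 3 it was -0.60 and was called lower at adjusted p = 0.0418 from edgeR. LINC00467 had a log2 fold change of -0.10 (edgeR adjusted p = 0.660). The p53 target LINC01021 had no row under that name, and its locus is listed as PURPL, with a log2 fold change of 0.35 (edgeR adjusted p = 0.302).

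The lowest estimates among the members belonged to LINC02562, LINC01146 and LINC01186, none of which was called. These members are named here for their values. LINC02562 was counted 44, 44 and 48 times in control cells and 18, 25 and 20 times after treatment, a log2 fold change of -0.67 ± 0.25 SE (edgeR adjusted p = 0.110). For LINC01146, now HISLA, it was -0.66 (edgeR adjusted p = 0.161), and for LINC01186 it was -0.57 (edgeR adjusted p = 0.175).

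Coding genes around the 7 called members were examined next, since some LINC RNAs act on the gene beside them. Each member's overlapping coding genes and the nearest coding gene on either side came to 16 genes, of which 13 were tested. AVL9, 171557 bases from LINC00997, was called higher. It stood at 86.9 ± 8.99 CPM in control and 123.6 ± 5.54 CPM in fluoxetine cells (SD, n = 3 each), a log2 fold change of 0.51 ± 0.09 SE (edgeR adjusted p = 0.00508). On the other side of LINC00997, KBTBD2 had a log2 fold change of 0.22 (edgeR adjusted p = 0.0889).

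The neighbours described next were not called. SPIN4, inside LINC01278 on the same strand, had a log2 fold change of 0.11 (edgeR adjusted p = 0.601), and its exons share no base with those of LINC01278. LINC00473 overlaps PDE10A, which encodes a phosphodiesterase of cAMP and cGMP, and their starts lie 1445 bases apart on the same strand. PDE10A had a log2 fold change of 0.21 (edgeR adjusted p = 0.282). The gene T, which encodes the transcription factor brachyury and was abundant with 138318 counts, lies 169607 bases from LINC00473 and had one of 0.20 (edgeR adjusted p = 0.309). Around LINC00346, ANKRD10 at 8288 bases had 0.15 and ING1 at 140647 bases had -0.21. Beside LINC01168, CFAP46 at 22710 bases had 0.12. Farther off, GALC, the lysosomal galactosylceramidase, 1708041 bases from LINC02328, had 0.26 (edgeR adjusted p = 0.0508), FLRT2 at 280283 bases had 0.19, and PLA2G4A, the cytosolic phospholipase A2, at 1916706 bases from LINC01035, had 0.18.

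Over all members, 121 had a tested coding gene as overlapping or nearest neighbour, at a median distance of 15161 bases, and 118 different genes served. Of these neighbours, 14 rose and 4 fell, beside 7.76% and 5.32% of all tested rows, and in no pair were both called. The log2 fold changes of a member and its neighbour had a Pearson r of 0.04 and a Spearman rho of 0.06 over the 121 pairs, which share the same libraries, and the sign was the same in 72 pairs. Over the 53 pairs within 10000 bases the r was 0.07. Among the neighbours that rose was TNFAIP3, the A20 inhibitor of NF-kappa-B signalling, 128204 bases from LINC02539, with a log2 fold change of 0.71 (edgeR adjusted p = 0.000532), and LINC02539 had one of 0.51 (edgeR adjusted p = 0.0624). Among those that fell was NCL, which encodes nucleolin, 24784 bases from LINC00471, with -0.50 (edgeR adjusted p = 0.00215), while LINC00471 had 0.14. HNRNPC, which encodes a splicing factor, lies 2235 bases from LINC00641 and had -0.39 (edgeR adjusted p = 0.00525), while LINC00641 had -0.11.

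**Figure D5:**
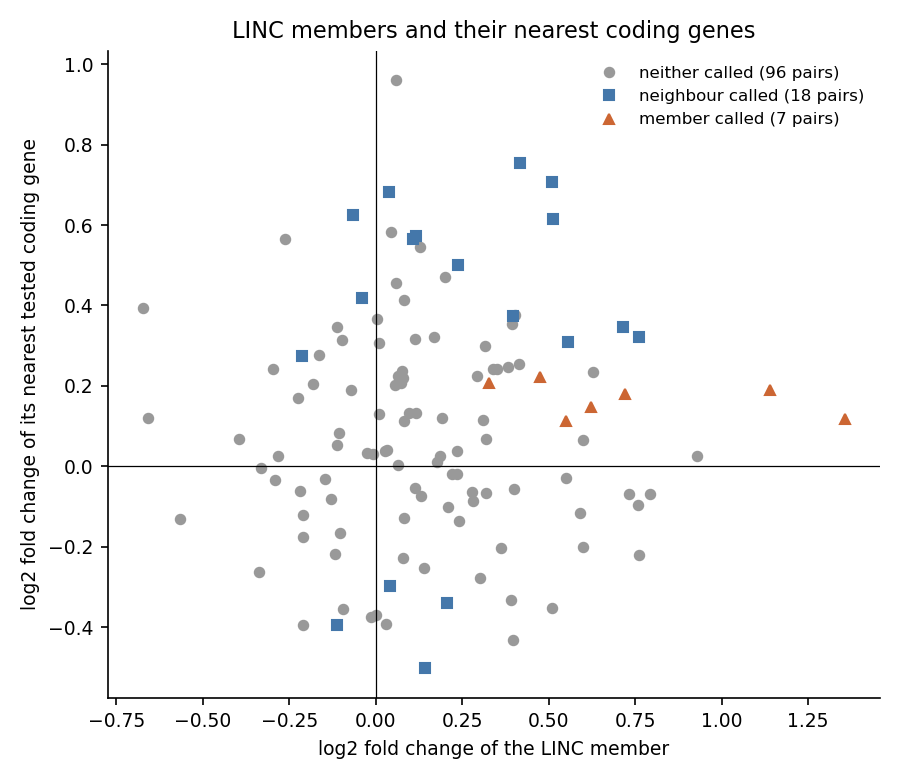
Log2 fold change of the nearest tested coding gene against that of the member, for 121 pairs. The points show no shared trend (Pearson r = 0.04), the 7 called members lie beside neighbours between 0.11 and 0.22, and no pair has both genes called.

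For 8 members the start lies within 1000 bases of the start of a coding gene on the opposite strand that is transcribed away from it without overlap. Opposite-strand pairs that overlap at their starts were not counted here. Such pairs are LINC00476 with ERCC6L2 (starts 276 bases apart), LINC00649 with ATP5O (446), LINC00894 with CXorf40B (183), LINC00909 with ZNF407 (638) and LINC01006 with RNF32 (373). The 8 counted pairs are LINC01089 with SETD1B, LINC01137 with ZC3H12A, LINC01184 with SLC12A2, LINC01534 with ZNF567, LINC01547 with FAM207A, LINC01560 with ZNF41, LINC01771 with LRP8 and LINC02486 with FBXW7. None of the 16 genes in these 8 pairs was called, where 7.76% of all tested rows were called higher and 5.32% lower. The sign of the estimate was the same in 5 of the 8. The members' log2 fold changes ran from -0.40 for LINC01534 to 0.40 for LINC01560, and ZNF41, beside LINC01560, had 0.38 (edgeR adjusted p = 0.0628).

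Long non-coding RNAs with names of their own were set beside the LINC members. Of 30 listed, 28 had a row and 23 were tested, of which 5 rose and 3 fell, beside 7.76% and 5.32% of all tested rows. NEAT1, the scaffold of nuclear paraspeckles, rose by a log2 fold change of 0.65 ± 0.10 SE (edgeR adjusted p = 0.00295), from 442.4 ± 61.6 to 693.5 ± 46.0 CPM (SD, n = 3 each). HCP5 rose by 0.68, OIP5-AS1 by 0.42, NORAD, which binds Pumilio proteins, by 0.39, and MALAT1, an RNA of nuclear speckles, by 0.36. The name MALAT1 has 2 rows with the same counts, and the row of the long RNA was taken. The 3 that fell are hosts of small nucleolar RNAs, namely SNHG1 with -0.63, SNHG15 with -0.61 and GAS5 with -0.31. None of the 23 reached a fold of 2, and their median log2 fold change was 0.04.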

How the data were processed

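RNA sequencing of H460 cells gave 3 control and 3 fluoxetine libraries of paired-end reads of 150 bases, grouped and numbered by their labels. The authors deposited raw counts per gene and library in 1 table, without pooling, beside columns of their own comparison (fold change on the log2 scale and p-values, raw and adjusted), which were not used. Per the labels, the submitters' processing notes name fastp 0.20.0, HISAT2 2.1.0, HTSeq 0.10.0 and DESeq2 1.18.1. Strand use in counting is not given in the sources used here. Coordinates were those of the table (GRCh38), and for 96.8% of the genes shared with GENCODE 29 both ends were identical.

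The test was that of edgeR 4.0.16 under R 4.3.3 (filterByExpr, TMM, glmQLFit, glmQLFTest, no covariate), with Benjamini-Hochberg adjustment over 15646 rows, and a gene was called at an adjusted p under 0.05. Levels are CPM after TMM, with the SD over 3 libraries. Depth was 16157507 to 27823667 counts. Members, lists and rules were chosen with earlier results of these data known. Genes named are the called members, the 8 most abundant, the listed genes, the coding neighbours of called members, and those at the minimum. Of the coding neighbours, 1 is not reported here. Other genes named were chosen after their values were seen. Copies were found with BLAST 2.17.0, promoter windows came from RefSeq (GRCh38.p14), and current names matched 126 identifiers. The test was checked on simulated counts. Alternatives were DESeq2 1.42.0, limma-voom (limma 3.58.1), other scalings and filters, thinning to the smallest total, a replicate block, other minimum sums, and leaving out each library. Counting each name once was chosen after seeing the data.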

Additional observations from a re-analysis of the deposited data

How the results depend on the processing

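Called members numbered 5 with DESeq2, 7 with limma-voom or RLE size factors, 8 with library size only, 9 without a filter, and 5 after thinning. Over all tested rows, in either direction, DESeq2 called 2234, limma-voom 1912, RLE size factors 2105 and library size only 2019. Without a filter 2909 of 31762 rows were called, and after thinning 1895 of 15504. Leaving out 1 library gave 2 to 7 called higher, 0 to 1 called lower, 0 to 3 at a fold of 2 and a median log2 fold change of 0.0773 to 0.115. Over all tested rows it gave 572 to 3633 calls and a median of -0.0125 to 0.00996. The median of the members was 0.0904 with DESeq2, 0.0897 with RLE size factors, 0.136 with library size only and 0.0796 without a filter. Over all tested rows the median moved in the same direction, from 0.0325 in the main fit. It was 0.00597 with DESeq2, 0.00640 with RLE size factors, 0.0538 with library size only and -0.00681 without a filter. With a summed count of at least 500, 48 members remained with 4 calls, 0 at a fold of 2 and a median of 0.0775. With at least 50 there were 8 calls among 149. Calls over all rows also depended on the count. They came to 6.25% at 100 or more and under 1000 counts and to 17% at 1000 or more, in either direction. The difference in the share of counts was 0.00556 percentage points with all members and 0.00978 without LINC00824. Within 50000 bases of called members, 0 of 4 coding genes were called.

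With a replicate block, 16 members were called higher. Calls over all 15646 tested rows rose as well, to 4018 in either direction, against 1214 higher and 833 lower without the block. Deviations from the group mean correlated at r = 0.03, 0.12 and 0.39 for same-numbered libraries 1, 2 and 3, the last being the highest of all pairs. Control replicate 1 correlated best with fluoxetine replicate 2 (r = 0.32). With 3 libraries a group, whose deviations add up to 0, these values cannot decide whether the numbers pair the libraries. LINC01278 and LINC01035 were called under all 15 alternatives. Over 24 named members, 304 of 360 values kept direction and side of the threshold, 29 lost a call, 5 gained one and 22 turned sign. None of the latter was called. With a library left out in turn, LINC00942 ran from -0.0252 to 0.0743, LINC00963 from -0.147 to 0.0895, LINC00641 from -0.248 to 0.0318, LINC00511 from -0.541 to 0.0438, LINC00665 from -0.0677 to 0.108, LINC00461 from -0.0876 to 0.293 and LINC00707 from -0.0837 to 0.0287. Without a filter LINC00963 was -0.00641. LINC00707, at 0.00368, became -0.0226 with DESeq2, -0.00125 with limma-voom, -0.0224 with RLE size factors, -0.0320 without a filter, -0.0267 after thinning and -0.00266 with each name once. The cause of these changes was not tested. Summed counts under 1000 left a median standard error of 0.25, so that folds well under 2 were often not detectable at this depth.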
